A study of Mus musculus with 9 samples.

Results

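Mdm2 and 7 neighbours on mouse chromosome 10 (Cct2, Frs2, Cpsf6, Nup107, Rab21, Tbc1d15 and Tmem19) were followed across 9 breast tumours. These 8 genes, of 49585 in the count table, were found by symbol, and all 8 had been selected on their read counts, which were high in 1 control tumour, AAV-Control 3. Their levels in that tumour and the group difference over all 9 tumours are therefore given as a description, with no test. The tumours were spontaneous breast adenocarcinomas of mice, profiled by total RNA sequencing after treatment with adeno-associated virus (AAV), a vector that carries genes into cells, on days 0, 3 and 8. They fell into 6 tumours labelled AAV-delta-mut-p53, whose vector was aimed at the mutant Trp53 gene, and 3 labelled AAV-Control. Both groups carried the same alleles: K14-Cre, a recombinase driven by the keratin 14 promoter of basal epithelium, Trp53wm-R172H/fl, and a Rosa26 LSL CAS9-P2A-EGFP allele that makes the Cas9 nuclease and a green fluorescent protein after Cre has acted. All animals thus had Cas9 in reach of Cre, the labels do not spell out wm, and they give no age, interval to collection or share of cells reached by the vector.

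MDM2 is the ubiquitin ligase that binds p53, blocks its activity and marks it for destruction, and its gene is itself switched on by p53. In human tumours a wider region of chromosome 12 that holds MDM2, CDK4, HMGA2, FRS2, CPSF6 and YEATS4 is known as recurrently amplified, best described in liposarcoma. The neighbours do unrelated work in the cell: CCT2 is a subunit of the CCT chaperonin that folds actin and tubulin, FRS2 is the docking protein that links fibroblast growth factor (FGF) receptors to the ERK pathway, CPSF6 belongs to cleavage factor I in messenger RNA 3′ end processing, and NUP107 is a scaffold protein of the nuclear pore. RAB21 is a small GTPase of early endosomes, TBC1D15 is a GTPase-activating protein for Rab proteins, and TMEM19 is a membrane protein whose role is little described.

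Positions were taken from the GRCm38 build. Tbc1d15 (chromosome 10, 115197872 to 115251467), Rab21 (115287084 to 115315594) and Tmem19 (115339674 to 115362501) form a proximal trio. Cct2 (117051001 to 117063814), Frs2 (117069427 to 117148534), Cpsf6 (117344673 to 117380015), Mdm2 (117688875 to 117710758) and Nup107 (117750621 to 117792705) form a distal group of 5. All 8 lie on the minus strand within 2.59 Mb, and none overlaps another annotated gene. Transcripts of 7 of the 8 had no stretch of at least 200 bases at 95% identity in transcripts of another gene, while Frs2 shared 427 bases with 1 other gene, so part of its reads could have been counted elsewhere.

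The promoters of the segment are shown because genes a short distance apart behaved differently in AAV-Control 3. Windows of 250 bases before to 50 bases after a gene start were read from RefSeq on GRCm38.p6, and capitals mark CpG dinucleotides, a mark of promoters of widely expressed genes. Mdm2 and Cct2 are genes whose RNA was high in AAV-Control 3, and Lyz2 and Tspan8 are genes from between the 8 whose RNA was not. The 4 windows are chr10:117710709-117711008 (minus strand) for Mdm2, chr10:117063803-117064102 (minus strand) for Cct2, chr10:117282223-117282522 (minus strand) for Lyz2 and chr10:115817034-115817333 (plus strand) for Tspan8.
Mdm2: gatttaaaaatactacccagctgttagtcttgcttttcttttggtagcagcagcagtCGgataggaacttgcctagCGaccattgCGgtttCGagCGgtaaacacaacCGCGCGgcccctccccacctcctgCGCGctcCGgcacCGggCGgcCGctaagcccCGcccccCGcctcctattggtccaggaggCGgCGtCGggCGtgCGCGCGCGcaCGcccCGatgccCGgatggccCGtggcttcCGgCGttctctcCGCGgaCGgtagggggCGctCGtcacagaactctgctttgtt
Cct2: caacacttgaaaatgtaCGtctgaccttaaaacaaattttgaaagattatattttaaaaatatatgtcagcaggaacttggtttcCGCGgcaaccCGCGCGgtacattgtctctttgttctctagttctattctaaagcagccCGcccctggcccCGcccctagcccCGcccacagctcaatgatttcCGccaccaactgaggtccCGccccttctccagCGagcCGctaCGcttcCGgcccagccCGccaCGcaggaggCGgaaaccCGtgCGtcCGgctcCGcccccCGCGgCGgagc
Lyz2: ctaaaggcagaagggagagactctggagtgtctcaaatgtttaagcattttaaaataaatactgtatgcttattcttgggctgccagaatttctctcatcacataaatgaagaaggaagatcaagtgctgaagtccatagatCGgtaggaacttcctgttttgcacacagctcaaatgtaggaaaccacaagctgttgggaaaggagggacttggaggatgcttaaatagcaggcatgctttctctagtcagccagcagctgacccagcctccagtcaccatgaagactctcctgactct
Tspan8: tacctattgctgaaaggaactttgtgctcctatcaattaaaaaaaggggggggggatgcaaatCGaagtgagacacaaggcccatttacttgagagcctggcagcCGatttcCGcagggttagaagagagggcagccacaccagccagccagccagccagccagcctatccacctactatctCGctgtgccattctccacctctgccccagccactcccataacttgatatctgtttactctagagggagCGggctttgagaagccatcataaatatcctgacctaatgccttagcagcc

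The Mdm2 window held 35 CpGs and the Cct2 window 25, against 1 in the Lyz2 window and 5 in the Tspan8 window. Over all 8 genes, 10 listed windows held 18 to 35 CpGs with a median of 25.5, beside a median of 7 over 32851 mouse windows. Those 32851 were not limited to genes expressed here. Other genes between the 8 that were at 2-fold or more in AAV-Control 3 had a median of 25 over 9 windows. A part of promoter sequence in the levels was not tested. The GC box GGGCGG, read on both strands, was present in 9 of the 10 windows of the 8 genes and in 35.7% of all windows. The CCAAT box, on both strands, was in 2 of the 10 windows and in 37.4% of all windows, and the E-box CACGTG was in 3 of the 10 and in 7.15% of all. A single p53 half-site was matched in 1 of the 10, the Mdm2 window, as GAACTTGCCT at chr10:117710935-117710944, and in 8.36% of all windows. The Lyz2 window held a half-site match as well, AGGCATGCTT, and the known p53 response elements of Mdm2 lie in its first intron, outside the window printed above.

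RNA of all 8 genes was present in every tumour, with 377 to 93319 counts behind each value. Levels below are CPM, a gene's counts per 1000000 counts of its library, scaled by TMM factors. Total counts were 18581545 to 24567423 in AAV-delta-mut-p53 tumours and 26280250 to 30953250 in AAV-Control tumours. AAV-delta-mut-p53 2 stood apart, with a summed level of 8 skeletal muscle markers of 39348 CPM against 25.2 to 370.0 CPM in the other AAV-delta-mut-p53 tumours and 46.3 to 146.9 CPM in controls. Trp53, the targeted gene, was 13.1, 21.9, 38.9, 37.8, 40.8 and 41.4 CPM in AAV-delta-mut-p53 tumours 1 to 6, against 48.4, 39.2 and 42.2 CPM in AAV-Control 1 to 3, so its RNA was not missing from any tumour. All 8 luminal epithelial markers had counts above 0 in every tumour. Their summed levels were 217 to 4686 CPM in AAV-delta-mut-p53 tumours (lowest in number 2) and 1396 to 2716 CPM in controls. The labelled breast origin was not tested by this. In bulk tissue, fewer cells of a type and less RNA per cell cannot be told apart.

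Mdm2 was 77.3, 80.8, 113, 85.3, 69.8 and 68.3 CPM in AAV-delta-mut-p53 tumours 1 to 6, against 90.7, 103 and 559.5 CPM in AAV-Control 1 to 3. A single tumour, AAV-Control 3, stood 6.71-fold above the median of the other 8 and 4.94-fold above the next highest. The other 8 tumours lay close together, within a 1.66-fold range, and the other 2 controls sat inside the range of the AAV-delta-mut-p53 tumours.

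Cct2 was 362, 224.5, 708, 545, 427 and 398 CPM in AAV-delta-mut-p53 tumours 1 to 6, against 452, 324 and 3688 CPM in AAV-Control 1 to 3. This was the widest step of the 8 genes, at 8.93-fold above the median of the other 8 tumours. Cpsf6 was 287, 203.5, 332, 219, 323 and 143 CPM in AAV-delta-mut-p53 tumours 1 to 6, against 305, 246 and 2076 CPM in AAV-Control 1 to 3, a 7.80-fold step. Frs2 was 53.8, 47.0, 43.0, 37.6, 56.5 and 61.8 CPM in AAV-delta-mut-p53 tumours 1 to 6, against 38.5, 50.5 and 382 CPM in AAV-Control 1 to 3, a 7.77-fold step. The adaptor gene Frs2 was about as even as Mdm2 among the other 8 tumours, within 1.64-fold, while Cct2 spread over 3.15-fold. Nup107 was 52.1, 39.1, 69.8, 84.9, 68.4 and 52.7 CPM in AAV-delta-mut-p53 tumours 1 to 6, against 60.9, 54.3 and 407 CPM in AAV-Control 1 to 3, a 7.02-fold step.

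The proximal trio showed smaller steps in the same tumour. Tbc1d15 was 51.8, 61.6, 63.8, 44.6, 51.4 and 35.5 CPM in AAV-delta-mut-p53 tumours 1 to 6, against 46.6, 46.0 and 213 CPM in AAV-Control 1 to 3, or 4.33-fold. Rab21 was 28.8, 30.1, 45.3, 39.8, 31.6 and 49.9 CPM in AAV-delta-mut-p53 tumours 1 to 6, against 26.7, 34.3 and 99.5 CPM in AAV-Control 1 to 3, or 2.99-fold. The endosomal GTPase gene was 1.99-fold above its next highest tumour in AAV-Control 3, a narrower gap than those of the distal group. Tmem19 was 16.9, 25.6, 21.8, 26.3, 42.8 and 44.2 CPM in AAV-delta-mut-p53 tumours 1 to 6, against 20.6, 36.1 and 79.6 CPM in AAV-Control 1 to 3, or 3.03-fold. Its gap to the next highest tumour was 1.80-fold, the smallest of the 8.

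**Figure D1:**
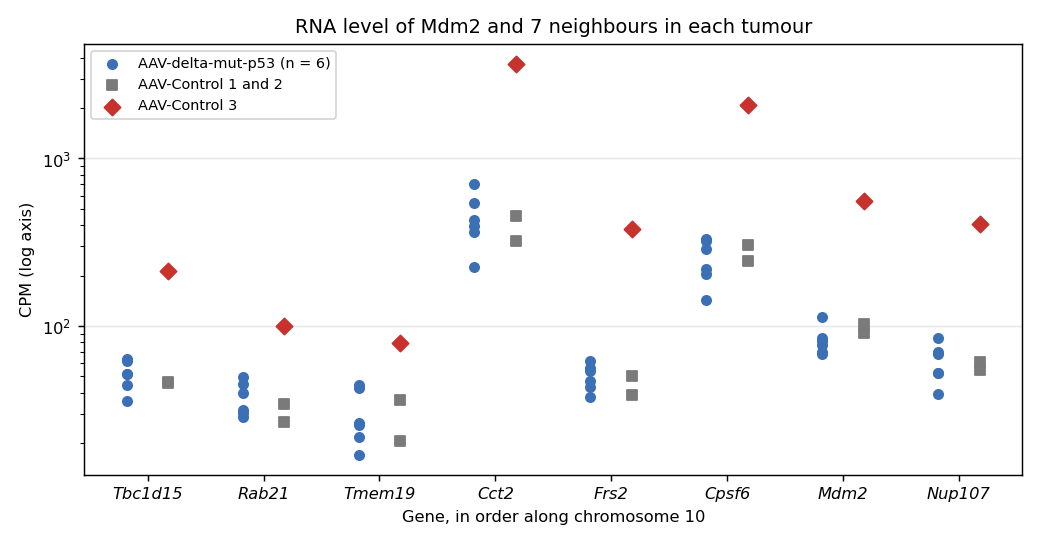
CPM on a log axis of the 8 genes in order along chromosome 10, with 1 point per tumour: AAV-delta-mut-p53 (circles, n = 6), AAV-Control 1 and 2 (squares) and AAV-Control 3 (diamonds). AAV-Control 3 lies above every other tumour for all 8 genes, by 1.80-fold (Tmem19) to 6.26-fold (Cpsf6), and the remaining points overlap.

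AAV-Control 3 was above all 6 AAV-delta-mut-p53 tumours for each of the 8 genes. Of the 16 values of AAV-Control 1 and 2, 15 were inside the range of the AAV-delta-mut-p53 tumours, and the exception was Rab21 in AAV-Control 1. Of the 64 values outside AAV-Control 3, 63 were within 2-fold of the median of the other tumours, and the exception was Cpsf6 in AAV-delta-mut-p53 6, at a log2 ratio of -1.05. Per length, as CPM per kilobase of exon, the median over the 8 tumours without AAV-Control 3 ordered the genes as Cct2 (161), Cpsf6 (25.4), Mdm2 (16.3), Nup107 (14.96), Tbc1d15 (11.5), Tmem19 (7.06), Rab21 (6.52) and Frs2 (5.58). Lengths join all annotated exons of a gene, so this order depends on the annotation. Cct2 was set apart, since its lowest value on that scale, 87.8, was above the highest of Cpsf6, 31.6. All other neighbours in that order overlapped in range. In AAV-Control 3 the order on the same scale was changed at its low end, with Frs2 at 43.7 above Tmem19 at 21.7 and Rab21 at 19.7.

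The design's comparison is AAV-delta-mut-p53 against AAV-Control, with changes as log2 fold changes from edgeR's quasi-likelihood fit over all genes. With all 9 tumours, all 8 genes had lower values in AAV-delta-mut-p53 tumours, with log2 fold changes from -0.51 (SE 0.41) for Rab21 to -1.80 (SE 0.60) for Cpsf6. Mdm2 averaged 82.5 ± 16.4 CPM in AAV-delta-mut-p53 tumours (SD, n = 6) and 251 ± 267 CPM in controls (SD, n = 3). Its log2 fold change was -1.61 (SE 0.51), those of Cct2, Frs2 and Nup107 were -1.74 (SE 0.67), -1.65 (SE 0.60) and -1.51 (SE 0.57), and those of Tbc1d15 and Tmem19 were -0.99 (SE 0.47) and -0.62 (SE 0.45). In this fit 0% of 19606 genes passed a false discovery rate (FDR) of 0.05 by edgeR, and 1387 had an unadjusted p under 0.05. DESeq2, a separate fit over 35482 genes, called 100 genes. It gave no p for 6 of the 8 genes, so its calls do not cover them.

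Without AAV-Control 3 the values of the 8 genes lay on both sides of 0. In the edgeR fit of 6 against 2 tumours, 6 of the 8 log2 fold changes were above 0 and 2 below, from -0.24 for Mdm2 to 0.29 for Rab21. Mdm2 had an SE of 0.30 there and Rab21 one of 0.34. None of the 8 passed the FDR by edgeR (smallest 0.891), beside 0% of 20592 genes. None had an unadjusted p under 0.05 either, beside 2.36% of all genes that were higher and 2.75% that were lower at that level. Leaving out AAV-Control 1 or AAV-Control 2 left all 8 lower, down to -2.22 for Cpsf6, and so did leaving out AAV-delta-mut-p53 2, the tumour with the muscle RNA (-0.44 to -1.73). The lower RNA of these genes in AAV-delta-mut-p53 tumours thus rested on 1 control. Since the 8 had been selected as high in that control, this follows from the selection and is a description. With 6 against 3 simulated tumours, edgeR recovered 0 of 50 genes changed by 1 on the log2 scale. The smaller fit of 6 against 2 therefore cannot show that the groups are alike.

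**Figure D2:**
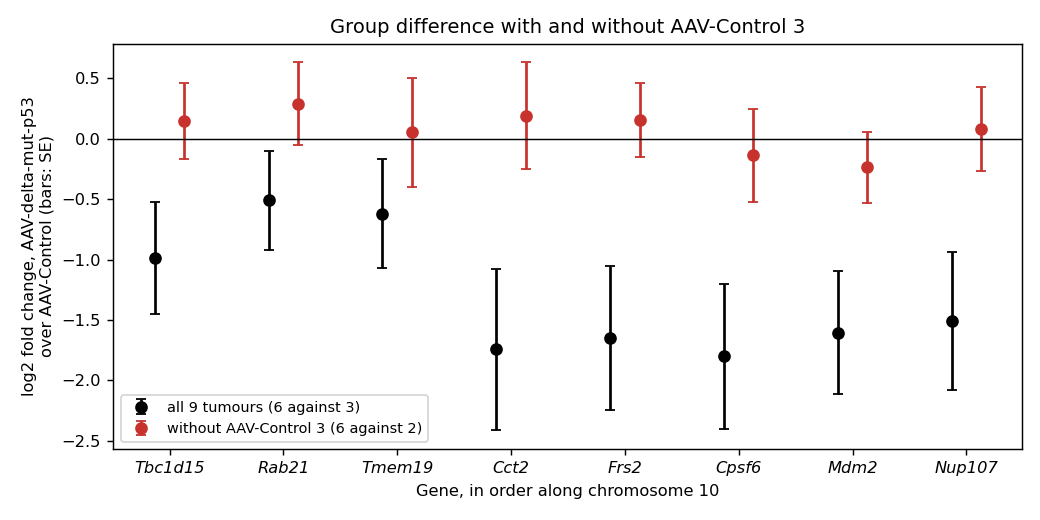
Log2 fold change, AAV-delta-mut-p53 over AAV-Control, of the 8 genes from edgeR, with standard errors as bars, for all 9 tumours (black) and without AAV-Control 3 (red). All black points are below 0, from -0.51 to -1.80, and the red ones lie from -0.24 to 0.29, with bars that all cross 0.

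The neighbourhood was then read tumour by tumour, as the log2 ratio of a gene in 1 tumour to its median in the other 8. Among 51 protein-coding genes of at least 5 CPM in the 15 Mb that start at 110 Mb, AAV-delta-mut-p53 1 to 6 had 6, 7, 5, 1, 1 and 7 at 2-fold or more, or 1.96% to 13.7%, beside genome-wide shares of 5.9%, 14.5%, 10.6%, 8.02%, 5.54% and 13.8% of 11725 such genes. AAV-Control 1 and 2 had 2 and 4, beside 5.56% and 10.2%. AAV-Control 3 had 24 of the 51, or 47.1%, beside 6.41% of all. Leaving out the 8 genes, 16 of the remaining 43 were at 2-fold or more in AAV-Control 3. None of the other 8 tumours had any of the 8 genes at 2-fold or more.

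Between the outermost of the 8 genes, 22 of 29 annotated protein-coding genes had a mean of at least 1 CPM, of which 14 were not among the 8. In AAV-Control 3, 8 of these 14 were at 2-fold or more, beside 7.27% of all protein-coding genes of at least 1 CPM. Cnot2, a subunit of the CCR4-NOT deadenylase, was 1023 CPM there and 129 to 238 CPM in the other tumours. Yeats4, a chromatin reader that binds acetylated histones, was 212 CPM there and 22.3 to 46.7 CPM elsewhere, and Slc35e3, a transporter family gene next to Mdm2, was 136 CPM against 12.1 to 26.5 CPM. These 3 stood at 6.17, 6.10 and 5.47-fold, close to the distal group. Rab3ip, an exchange factor for Rab8, was 4.38-fold, and Thap2 and Zfc3h1, next to Tmem19, were 4.401 and 4.08-fold. The potassium channel subunit gene Kcnmb4 was 3.01-fold, but at 7.04 CPM. Cpm, a carboxypeptidase gene that adjoins Mdm2, was 3.02-fold above the median, yet AAV-delta-mut-p53 tumours 1 and 6 held 97.5 and 199.8 CPM, above the 53.3 CPM of AAV-Control 3.

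The other 6 of the 14 were under 2-fold in AAV-Control 3, and several are known as genes of particular cell types. Lyz2, a lysozyme of macrophages, lies between Cct2 and Mdm2 and was 303, 1373, 387, 237.5, 152 and 479 CPM in AAV-delta-mut-p53 tumours 1 to 6, against 342.5, 239 and 390.1 CPM in AAV-Control 1 to 3. Lyz2 was highest in AAV-delta-mut-p53 2, the tumour with the muscle RNA, where the summed level of 9 macrophage markers, Lyz2 among them, was 3884 CPM against 453 to 1549 CPM in the other AAV-delta-mut-p53 tumours and 694 to 1047 CPM in controls. Lyz1 was 0.91 CPM in AAV-Control 3. Ptprb, a phosphatase of endothelium, was 37.1 CPM in AAV-Control 3, inside the range of 18.04 to 66.1 CPM of the others. Lgr5, a Wnt-pathway receptor of stem cells, Myrfl and Tspan8, an epithelial tetraspanin, were 5.02, 2.21 and 2.02 CPM in AAV-Control 3. Tspan8 reached 168 CPM in AAV-delta-mut-p53 6, so single genes of the stretch were high in other tumours without the rest. The 3 of these 6 genes with a listed promoter window, Tspan8, Lyz1 and Lyz2, held 1 to 5 CpGs, against 3 to 48 in the 9 windows of the 8 that were at 2-fold or more. Cnot2, with 3 and 11 CpGs in its 2 windows, was at 6.17-fold all the same.

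**Figure D3:**
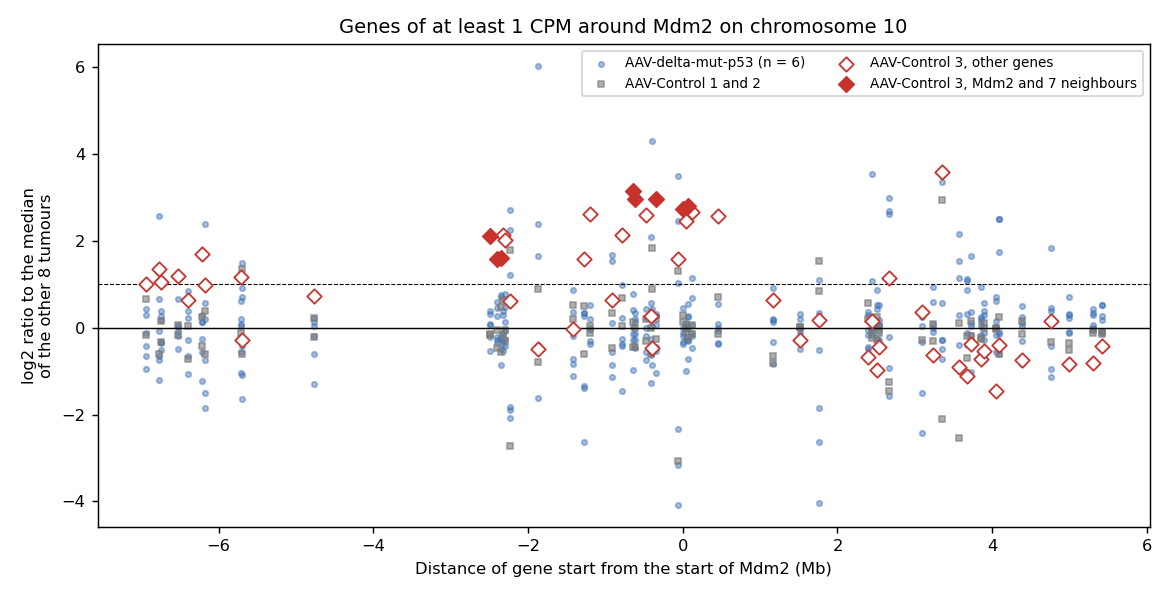
Log2 ratio of each gene of at least 1 CPM to its median in the other 8 tumours, against distance from the start of Mdm2 in Mb, with filled diamonds for the 8 genes and open ones for other genes in AAV-Control 3, and circles and squares for the other tumours. AAV-Control 3 is above the dashed 2-fold line for most genes up to Mdm1 and near or below 0 for most genes beyond it.

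On the low side, the nearest genes of at least 5 CPM outside the 8 were Atxn7l3b (1.67-fold in AAV-Control 3), Glipr1 (0.82-fold), Krr1 (2.25-fold), Phlda1 (1.99-fold) and Nap1l1 (3.23-fold). The histone chaperone gene Nap1l1 was 114 to 300.5 CPM in the AAV-delta-mut-p53 tumours, against 199 and 288 CPM in AAV-Control 2 and 1 and 790.1 CPM in AAV-Control 3. On the high side, the small GTPase gene Rap1b (1143 CPM, 6.34-fold) and Mdm1 (114 CPM, 5.99-fold) still stood high in AAV-Control 3. Next to them the step ended, since Dyrk2, a kinase gene, was 1.57-fold, Cand1, a cullin regulator, 0.83-fold, and Grip1 1.13-fold.

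Dividing the chromosome after its values were seen, the median AAV-Control 3 ratio was 1.36 on the log2 scale over 23 genes from 100 Mb to Atxn7l3b and 2.14 over the 21 genes from Tbc1d15 to Mdm1. In that second stretch 17 of 21 genes were at 2-fold or more, beside 6.41% of all genes. The 17 include the 8 genes that had been selected as high in AAV-Control 3. The other 4 of the 21 were Lgr5, Tspan8 and Ptprb, which follow each other between Zfc3h1 and Cnot2, and Lyz2. Beyond Mdm1, from Dyrk2 to Usp15, the median was -0.48 over 20 genes, and from Slc16a7 to the end of the chromosome it was -0.99 over 66 genes, of which 65 were below their median in the other tumours. Over all 11725 genes the median ratio in AAV-Control 3 was -0.03. The other 8 tumours had medians of -0.78 to 0.40 in these 4 stretches. Among 11337 sliding windows of 20 genes over the genome, AAV-Control 3 had 112 with a median of at least 2-fold, 43 of them on chromosome 10. The windows with the highest median in AAV-Control 3 were not on chromosome 10 but on chromosome 8 (5.64-fold, 11.6 to 13.9 Mb). Such windows were found in every tumour, between 256 in AAV-delta-mut-p53 4 and 3 in AAV-Control 1. On chromosome 10 there were 20 in AAV-delta-mut-p53 5 and 0 in each of the other 7. DNA copy number was not measured in the data used here, and its part in these levels was not tested.

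**Figure D4:**
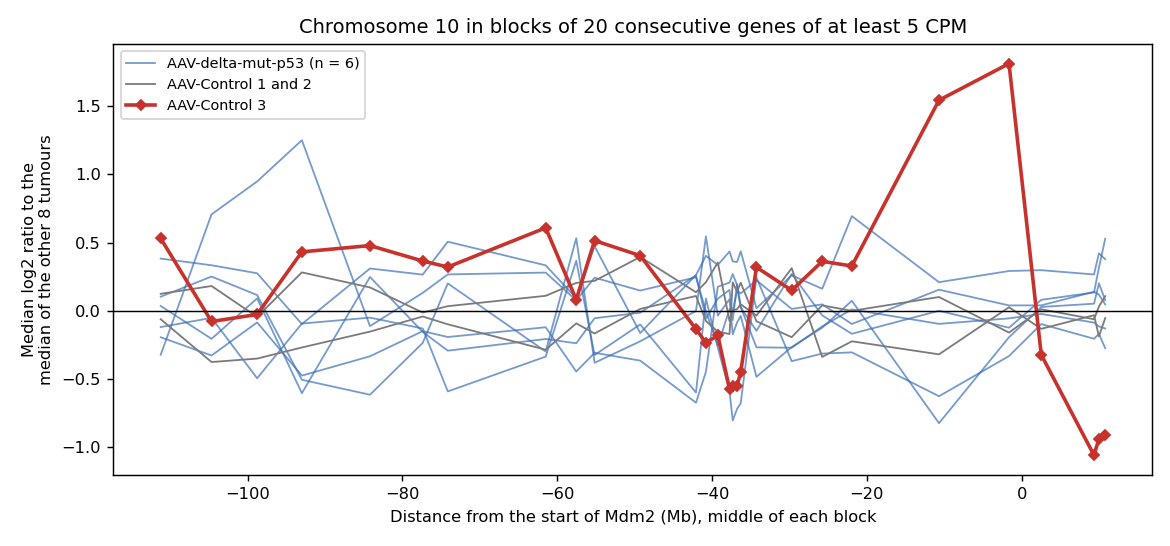
Median log2 ratio to the other 8 tumours in 28 consecutive blocks of 20 genes of at least 5 CPM along chromosome 10, against distance from the start of Mdm2 in Mb, with 1 line per tumour. AAV-Control 3 (red) peaks at 1.81 in the block that ends at Mdm2 and falls to -1.06 past it, and the line that peaks on the left, at 1.25, is AAV-delta-mut-p53 5.

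Mouse counterparts of genes in the human amplified region lay on both sides of that step. Of 39 mouse genes listed for the human 12q13 to 12q15 stretch or next to it, leaving out the 8, 36 were tested. Of these, 21 had a higher and 15 a lower mean after mutant p53 targeting, with a median log2 fold change of 0.21 beside 0.09 over all genes. By unadjusted p under 0.05, 6 were lower (Mdm1, Thap2, Slc35e3, Yeats4, Cnot2 and Rab3ip), beside 3.26% of all genes, and 3 were higher, Ddit3 and Os9 among them, beside 3.82%. All 6 lower genes lie in the stretch from Tbc1d15 to Mdm1 that was raised in AAV-Control 3, so they are no separate result. None of the 36 passed the FDR, and none of the genes named kept an unadjusted p under 0.05 without AAV-Control 3, where 1 gene of the list had one. Os9 kept it in 1 of the 9 fits that left out 1 tumour, Rab3ip in 3 and Ddit3 in 5. Cdk4, the cell-cycle kinase gene, was 215, 155, 332, 325, 257 and 223 CPM in AAV-delta-mut-p53 tumours 1 to 6, against 364, 270.3 and 130 CPM in AAV-Control 1 to 3. AAV-Control 3 was thus the lowest tumour for Cdk4, at a log2 ratio of -1.02, while Mdm2 was highest there. Os9, an endoplasmic reticulum lectin gene, was also lowest there (62.7 CPM). Hmga2, a chromatin protein gene, was 5.79, 0.37, 7.65, 0.06, 0.71 and 6.14 CPM in AAV-delta-mut-p53 tumours 1 to 6, against 0.11, 0.20 and 1.78 CPM in AAV-Control 1 to 3, so its highest values were in other tumours. Wif1, a secreted Wnt inhibitor gene beyond Mdm1, was 82.5 CPM in AAV-delta-mut-p53 tumour 1, against 96.8 CPM in AAV-Control 3 and 61.6 CPM in AAV-Control 1. It was named after its values were seen.

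The p53 pathway was examined next to Mdm2. The list held 16 genes, Trp53 itself and regulators of p53 other than Mdm2. Of these, 6 had log2 fold changes above 0 and 10, Trp53 among them, below. An unadjusted p under 0.05 was found for 0 of the 16 (1 without AAV-Control 3), and the median was -0.15. Here and in all lists that follow, no gene had an edgeR FDR under 0.677, and the genes named with an SE are those with the smallest p of their list. Over all genes, 3.82% were higher and 3.26% lower at an unadjusted p under 0.05 (2.36% and 2.75% without AAV-Control 3). In AAV-Control 3, 6.41% of all genes of at least 5 CPM were at 2-fold or more. Counts of 0 or 1 in these short lists are therefore not read as a result. Mtbp, which encodes an MDM2-binding protein, had -0.70 (SE 0.33) and Cdkn2a, which encodes the MDM2 inhibitor ARF, had 0.89 (SE 0.43). In AAV-Control 3 the ribosomal protein gene Rpl23 was the 1 regulator at 2-fold or more. Mdm4, the p53-binding relative of Mdm2, was 140, 149, 116, 120.2, 104 and 103 CPM in AAV-delta-mut-p53 tumours 1 to 6, against 81.3, 66.1 and 149 CPM in AAV-Control 1 to 3. Cdkn2a was 20.7 to 71.3 CPM in AAV-delta-mut-p53 tumours, against 27.3 and 29.5 CPM in AAV-Control 2 and 1 and 14.9 CPM in AAV-Control 3, its lowest tumour.

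Of 32 p53 target genes other than Mdm2, 16 had log2 fold changes above 0 and 16 below. An unadjusted p under 0.05 was found for 0 of them (2 without AAV-Control 3), beside 3.82% of all genes higher and 3.26% lower. The kinase genes Plk2 and Plk3 had -1.08 (SE 0.49) and 1.04 (SE 0.55). In AAV-Control 3, 1 of 29 targets of at least 5 CPM was at 2-fold or more, beside 6.41% of all genes. It was Perp, which encodes a desmosome protein and lies on chromosome 10. The median target ratio there was 0.02 on the log2 scale, and in the other tumours it was -0.44 to 0.29. Cdkn1a, whose product p21 blocks cyclin-dependent kinases, was 10.1, 10.8, 3.95, 3.62, 9.54 and 20.4 CPM in AAV-delta-mut-p53 tumours 1 to 6, against 5.22, 11.7 and 5.65 CPM in AAV-Control 1 to 3. AAV-Control 3 was inside the range of the other tumours for Cdkn1a.

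Partners of the other genes, most of them on other chromosomes, had median log2 ratios of -0.43 to 0.24 by list in AAV-Control 3. Cct2 per kilobase was 1.92 to 3.97 times the median of the 7 other CCT subunits tested in AAV-delta-mut-p53 tumours, against 3.10 and 2.02 times in AAV-Control 1 and 2. In AAV-Control 3 it was 21.7 times that median, at 1442 CPM per kilobase. Kilobases join all annotated exons of a gene (2557 bases for Cct2, 2766 to 6778 for the 7). The ratios therefore depend on the annotation and are compared between tumours only. In CPM, without length, AAV-Control 3 had 3688 for Cct2 and 215 to 594 for the 7. The median log2 ratio of the 7 in AAV-Control 3 was 0.24, and 1 of the 7, Cct8, reached 2-fold, at 553 CPM. Between the groups, 1 of the 7 had a log2 fold change above 0 and 6 below, none with an unadjusted p under 0.05, with Cct4 at 0.52 (SE 0.34) and Cct6a at -0.44 (SE 0.35). The assembled chaperonin holds its subunits in equal numbers, and the RNA of Cct2 was out of proportion to the rest in this 1 tumour. Since Cct2 had been selected as high in that tumour and the 7 had not, this follows from the selection and is a description.

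Among 9 other genes of the nuclear pore scaffold that holds NUP107, the AAV-Control 3 median ratio was 0.10 and 0 were at 2-fold, beside 6.41% of all genes. Of these, 4 had log2 fold changes above 0 and 5 below, none with an unadjusted p under 0.05, with Nup85 at 1.13 (SE 0.64) and Nup43 at -0.34 (SE 0.36). Among 17 other factors of 3′ end cleavage, partners of CPSF6, that median ratio was 0.13 and 0 were at 2-fold, beside the same 6.41%. Cstf2, a subunit of the cleavage stimulation factor, was the 1 gene of the 17 with an unadjusted p under 0.05, at -0.74 (SE 0.31). It was no longer under 0.05 in 4 of the 9 fits that left out 1 tumour, those without AAV-delta-mut-p53 4, AAV-delta-mut-p53 5, AAV-Control 2 or AAV-Control 3, the last at -0.78 (SE 0.37).

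For FRS2, 12 other genes of FGF receptor signalling were tested, 6 with log2 fold changes above 0 and 6 below. Gab1, an adaptor downstream of FRS2 and the 1 gene of the 12 with an unadjusted p under 0.05, had 0.88 (SE 0.35), with 114, 88.5, 56.3, 107, 68.8 and 157 CPM in AAV-delta-mut-p53 tumours against 44.2, 59.5 and 56.8 CPM in AAV-Control 1 to 3. The ranges of Gab1 overlapped in AAV-delta-mut-p53 3, and its unadjusted p was no longer under 0.05 without AAV-Control 3, at a log2 fold change of 0.92 (SE 0.43), or without AAV-Control 1. In AAV-Control 3 the 9 genes of at least 5 CPM had a median ratio of -0.43, with Fgfr1 at 2-fold (106 to 430.2 CPM in AAV-delta-mut-p53 tumours, against 388 CPM in AAV-Control 3). Of 13 genes that respond to FGF and ERK signalling, 3 had log2 fold changes above 0 and 10 below, with a median of -0.39 and no unadjusted p under 0.05 (1 without AAV-Control 3). The feedback inhibitor gene Spry4 had -0.89 (SE 0.46) and the AP-1 gene Fosl1 1.11 (SE 0.67). Dusp6, the ERK phosphatase gene on chromosome 10, was 1088 CPM in AAV-delta-mut-p53 tumour 3, where 7 of 12 such genes were at 2-fold or more, against 700 CPM in AAV-Control 3, where it was the 1 gene of the 12. Over all genes the shares at 2-fold or more were 10.6% in AAV-delta-mut-p53 3 and 6.41% in AAV-Control 3.

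For RAB21 and TBC1D15, 19 other endosomal Rab and TBC genes were tested, 12 with log2 fold changes above 0 and 7 below, with a median of 0.14 and no unadjusted p under 0.05. Vamp8, an endosomal fusion protein gene, had 0.90 (SE 0.44) and Rab11b, a recycling GTPase gene, -0.47 (SE 0.31). None of the 18 at 5 CPM or more was at 2-fold in AAV-Control 3, beside 6.41% of all genes, and their median ratio there was -0.20.

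**Figure D5:**
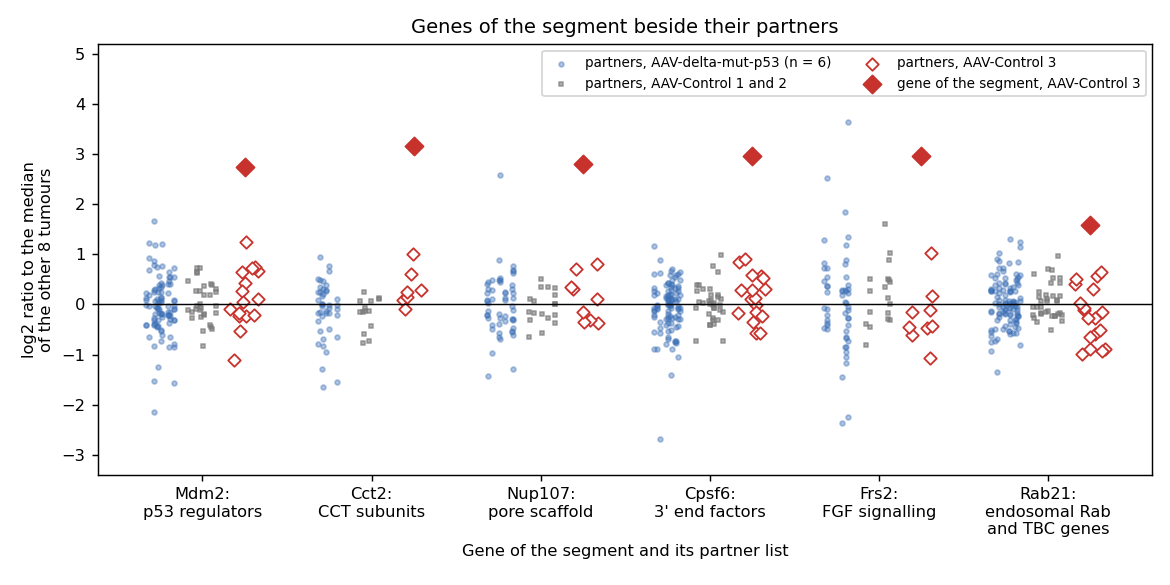
Log2 ratio to the median of the other 8 tumours for partner genes of at least 5 CPM of 6 of the genes, in AAV-delta-mut-p53 tumours (circles), AAV-Control 1 and 2 (squares) and AAV-Control 3 (open diamonds), with the gene of the segment in AAV-Control 3 as a filled diamond. Each filled diamond, from 1.58 (Rab21) to 3.16 (Cct2), lies above all open diamonds of its list. The genes with filled diamonds had been selected as high in AAV-Control 3.

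The genes most like Mdm2 elsewhere were ranked by Pearson's r on log2 CPM over the 9 tumours, among 11673 genes outside those 15 Mb of chromosome 10. Neil3, a DNA glycosylase gene on chromosome 8, was the most alike (r = 0.97), and 5 of the 10 lay on chromosome 10: Ppp1r12a (0.96), Gas2l3 (0.95), Tmtc3 (0.95), Ccdc59 (0.94) and Rrp1 (0.93). The rest were Mapk1ip1l (0.94), Ktn1 (0.93) and Dnajc3 (0.92) on chromosome 14 and Caap1 (0.91) on chromosome 4. For scale, chromosome 10 held 551 of the 11337 sliding windows of 20 genes. All 10 genes were at 2-fold or more in AAV-Control 3, from 2.01-fold (Caap1) to 7.98-fold (Neil3), beside 6.41% of all genes. Mdm2 had been selected as high in that tumour, so this follows in large part from the ranking. Without that tumour the same 10 genes had r of 0.12 (Ktn1) to 0.75 (Mapk1ip1l) with Mdm2, and Neil3 had 0.67. Over the 8 tumours without it, the most alike were Med27 (0.97), St7 (0.93), Ppil4 (0.92), Vps29 (0.92) and Cdkn2aip (0.92). These are the highest of 11673 over 8 tumours in which Mdm2 varied 1.66-fold, so their r is not read as a result. Over the same 8 tumours the 7 neighbours had r with Mdm2 of -0.60 (Frs2) to 0.45 (Tbc1d15), and over all 9 tumours 0.63 (Tmem19) to 0.95 (Tbc1d15). These correlations share libraries and scaling and are a description, with no p.

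Marker sums of cell types in AAV-Control 3 were 1556 CPM of 8 luminal, 2617 CPM of 6 basal, 1047 CPM of 9 macrophage, 753 CPM of 6 fibroblast and 223 CPM of 5 endothelial markers. The fibroblast sum was 787 to 16584 CPM in AAV-delta-mut-p53 tumours and 2634 and 7158 CPM in AAV-Control 1 and 2, so AAV-Control 3 was the lowest of the 9, and the other 4 sums were inside the range of the other tumours. Among basal markers, 5 of 6 were at 2-fold or more in AAV-delta-mut-p53 tumour 4, beside 8.02% of all genes. In AAV-Control 3, 4 of 6 were so, beside 6.41%. No marker was at 0 in AAV-Control 3, and the part of cell makeup in its levels was not tested.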

How the data were processed

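Total RNA was sequenced from 9 flash-frozen mouse breast tumours with a stranded kit, per the labels' protocols. The authors deposited raw read counts per gene, and the submitters' processing notes list STAR 2.6.0b, DESeq2 and the GRCm38 build. The sources used here do not give the counting program, its strand setting or the annotation release. The 8 genes and the gene lists were chosen with earlier results of these data known, and segment ends were drawn after the values were seen.

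The test was edgeR 4.0.16 under R 4.3.3 (filterByExpr, TMM, 2-sided quasi-likelihood test, Benjamini-Hochberg adjustment over 19606 genes). Fold changes have the AAV-delta-mut-p53 group on top. DESeq2 1.42.0 was an alternative, as were other scalings, other filters, other folds, the 2 samples whose titles share a number summed, and each tumour left out. On simulated counts of this comparison, over 19138 genes, edgeR recovered 0, 8, 19 and 33 of 50 genes changed by 1, 2, 3 and 4 on the log2 scale, with 4 false calls. Log2 ratios of a tumour to the median of the other 8 used CPM plus 0.5 and have no test.

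Positions came from GENCODE mouse release 21, symbols were found for 49326 of 49585 identifiers, and promoter windows came from RefSeq. The genes named were the 8, genes between them of at least 1 CPM, the 5 nearest of at least 5 CPM on each side, the most alike by r, and of each list those with an unadjusted p under 0.05 or else the 2 smallest, and 1 gene that this rule takes is not reported here. Nothing in the labels says that the tumours came from separate animals, and 2 titles (AAV-delta-mut-p53 4 and 5) share a number. The SEs and p-values treat all samples as independent, and may be too small if some came from 1 animal. Intervals of counting error are not given. Each value of the 8 genes rests on at least 377 counts. Values of other genes near or under 1 CPM, such as those of Hmga2 and Lyz1, rest on far fewer.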

Additional observations from a re-analysis of the deposited data

Results flagged for a closer look

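Among the 8 genes and 24 neighbours, 2 had 1 AAV-delta-mut-p53 tumour far from the other 5, in each case AAV-delta-mut-p53 2. Lyz1 was 30.8 CPM in that tumour, and the next highest of its group was 1.63 CPM. Slc35e3 was 12.1 CPM there, and the next lowest was 21.1 CPM. Chance flags about 1 in 20 groups, and 32 genes were screened. The control group of 3 is too small for this screen, so AAV-Control 3 was not screened.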

How the results depend on the processing

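No paired analysis was possible because the labels give no replicate numbers. The number of genes past the FDR was 0 with all tumours by edgeR and 0 in every fit that left out 1 tumour. By DESeq2 it was 100, with no p given for 6 of the 8 genes. Of 120 log2 fold changes of the 8 genes under alternatives, 114 kept their sign and 6 turned, all without AAV-Control 3: Cct2 (0.19), Frs2 (0.16), Nup107 (0.082), Rab21 (0.29), Tbc1d15 (0.15) and Tmem19 (0.052). With 1 tumour left out, values ran from -2.001 to -0.24 for Mdm2, -2.20 to 0.19 for Cct2, -2.11 to 0.16 for Frs2, -2.22 to -0.14 for Cpsf6, -1.91 to 0.082 for Nup107, -0.83 to 0.29 for Rab21, -1.33 to 0.15 for Tbc1d15 and -0.97 to 0.052 for Tmem19. Of 272 log2 ratios under alternatives, 11 moved by more than the spread, all with the mean of the other tumours as base, which AAV-Control 3 raises: Mdm2 in AAV-delta-mut-p53 1 to 6 was -0.49, -0.42, 0.13, -0.33, -0.65 and -0.69, and Frs2 in numbers 1, 3, 4, 5 and 6 was -0.19, -0.55, -0.76, -0.11 and 0.036. Counts among the 51 genes in the 15 Mb that start at 110 Mb moved with the fold, as did the shares of all genes. At 1.5-fold the counts were 11, 11, 3, 2 and 14 in AAV-delta-mut-p53 2 to 6 with 6 in AAV-Control 1. The shares of all genes were 20.9%, 23.9%, 18.3%, 14.4% and 24.9%, with 13.6%. At 3-fold the counts were 3, 0 and 3 in AAV-delta-mut-p53 3, 5 and 6, with 1 each in AAV-Control 1 and 2. The shares were 4.42%, 1.93% and 5.98%, with 2.37% and 3.94%. With library size alone the count in AAV-delta-mut-p53 3 was 3, beside 8.91%. The count of AAV-Control 3 stayed within 1.5 times of 24 in each alternative. It was 29 at 1.5-fold, beside 16.7% of all genes, and 18 at 3-fold, beside 2.58%.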
